A study of Mus musculus with 76 samples.

Results

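The genes described here are 48 genes of mitosis and the kinetochore, taken as a list of names. The list was drawn up with earlier results of these data known, so that its overall direction is a description. All 48 were found by symbol among the 14823 genes of the deposited count table, and all 48 were among the 14339 genes that passed the filter on low counts. The 76 RNA-seq libraries hold dorsal forebrain of C57Bl/6J mice, collected on embryonic day 16. Before mating, the parents had been treated over 28 days with a-cypermethrin (α-cypermethrin), a pyrethroid insecticide, or with vehicle: dosing ran for 7 days, paused for 2 and resumed for 5, with the last 2 steps done 3 times. The dose is labelled 0.3 or 10, with no unit. Ctrl (n = 12) came from pairs in which both parents received vehicle. Paternal_0.3Cyp (n = 12) and Paternal_10Cyp (n = 10) had an exposed father and a vehicle-treated mother, Maternal_0.3Cyp (n = 12) and Maternal_10Cyp (n = 8) had an exposed mother and a vehicle-treated father, and in Both_0.3Cyp (n = 12) and Both_10Cyp (n = 10) both parents received the same dose. The labels give each library a sex and a batch, 1 (34 libraries) or 2 (42 libraries), but no litter. Embryos of 1 litter cannot be recognised, so that p-values measure the spread between libraries, some of which may be littermates.

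Library totals ran from 17735597 to 41419156 counts. The dorsal forebrain markers Emx1, Emx2, Lhx2, Pax6, Neurod6 and Tbr1 were present in every library, the lowest single value being 16.7 normalised CPM for Emx2. Normalised CPM are counts relative to the library total after scaling by trimmed mean of M-values (TMM) factors. Several libraries stood apart. Paternal_0.3Cyp replicates 3 and 4 and Both_10Cyp replicates 7 and 8 were high in embryonic globins, and Ctrl replicate 3, Paternal_0.3Cyp replicates 6 and 9 and Paternal_10Cyp replicates 1 and 8 were high in diencephalon markers. Counts of genes are given below also without them.

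In mitosis the kinase CDK1, bound to B-type cyclins, drives chromosome condensation, spindle assembly and breakdown of the nuclear envelope. Kinetochores, built on centromeric chromatin, tie each chromatid to spindle microtubules, and a checkpoint holds back the anaphase-promoting complex, a ubiquitin ligase, until all are attached. In the embryonic cortex most dividing cells are radial glia, which divide at the ventricular surface, and intermediate progenitors, which divide farther out, and neurons no longer divide. Many genes of this programme are transcribed late in the cell cycle through promoters with CCAAT boxes and a cell cycle homology region (CHR), whose usual core is TTTGAA, and are kept off in resting cells by the DREAM complex.

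Promoter sequences are shown because the genes moved together in the comparisons that follow. RefSeq windows on GRCm38.p6, of 300 bases from 250 before to 50 after the start of transcription, were matched by symbol for 40 of the 48 genes, in 42 windows. TTTGAA, on either strand, was in a window of 29 of the 40 genes (72.5%), against 13.85% of 11123 other tested genes and 20.23% of all 27025 genes with a window. CCAAT, on either strand, was in 77.5% of the 40 genes, in 42.69% of the other tested genes and in 41.06% of all. Both motifs occurred in 62.5% of the 40 genes and in 5.574% of the other tested genes. TTTGAA began within 50 bases of the start in 67.5% and 3.398%. A match describes letters and is not a binding site. TTTGAA and CCAAT were counted separately, whether or not they overlapped. The windows below run from 150 before to 50 after the start, 200 bases each, 5′ to 3′ on the gene's strand, with each TTTGAA and each CCAAT, or the reverse complement of either, in capitals. The first set are Cks2, Ccnb2 and Cenph, which passed the test in all 6 exposed groups. The second set are Top2a, Mki67 and Kif4, which passed it in none. With offsets for length and GC content, described below, the first set missed in Both_10Cyp (adjusted p = 0.105, 0.0817 and 0.0801 by edgeR). Ccnb2 also missed in Paternal_10Cyp (adjusted p = 0.134 by edgeR). Top2a then passed in Paternal_0.3Cyp and Maternal_10Cyp, and Mki67 in Paternal_0.3Cyp.
Cks2 (chr13:51645082-51645281, plus strand): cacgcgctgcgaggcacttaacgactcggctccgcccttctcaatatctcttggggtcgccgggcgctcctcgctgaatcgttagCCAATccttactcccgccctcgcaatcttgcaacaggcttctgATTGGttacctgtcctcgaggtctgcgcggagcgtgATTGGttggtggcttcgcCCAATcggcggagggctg
Ccnb2 (chr9:70421505-70421704, minus strand): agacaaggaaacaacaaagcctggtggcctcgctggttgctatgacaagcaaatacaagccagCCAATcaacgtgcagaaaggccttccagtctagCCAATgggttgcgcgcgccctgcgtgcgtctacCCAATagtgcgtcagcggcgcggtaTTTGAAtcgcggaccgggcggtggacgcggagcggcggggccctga
Cenph (chr13:100775850-100776049, minus strand): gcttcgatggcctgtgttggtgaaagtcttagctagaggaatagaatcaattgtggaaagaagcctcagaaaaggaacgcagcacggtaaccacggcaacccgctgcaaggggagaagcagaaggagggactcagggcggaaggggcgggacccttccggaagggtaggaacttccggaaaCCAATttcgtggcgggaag
Top2a (chr11:99024140-99024339, minus strand): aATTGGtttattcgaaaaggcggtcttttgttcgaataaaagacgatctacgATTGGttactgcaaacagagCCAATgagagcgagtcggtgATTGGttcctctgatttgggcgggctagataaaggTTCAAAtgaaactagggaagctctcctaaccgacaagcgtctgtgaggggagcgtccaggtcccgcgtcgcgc
Mki67 (chr7:135716330-135716529, minus strand): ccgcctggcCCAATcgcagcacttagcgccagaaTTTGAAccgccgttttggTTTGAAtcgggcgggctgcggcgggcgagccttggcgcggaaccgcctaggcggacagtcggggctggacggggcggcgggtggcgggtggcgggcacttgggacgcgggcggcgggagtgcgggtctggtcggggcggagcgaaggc
Kif4 (chrX:100625915-100626114, plus strand): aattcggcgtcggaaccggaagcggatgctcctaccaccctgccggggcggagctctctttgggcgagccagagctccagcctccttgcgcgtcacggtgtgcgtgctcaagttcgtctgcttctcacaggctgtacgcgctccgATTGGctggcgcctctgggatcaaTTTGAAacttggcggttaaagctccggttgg

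All 6 windows held CCAAT. Cks2 had 4 CCAAT matches and no TTTGAA in the printed window, Ccnb2 had 3 and 1, and Cenph had 1 and no TTTGAA. Top2a had 4 CCAAT matches and 1 TTTGAA, Mki67 had 1 and 2, and Kif4 had 1 and 1. The 11 matched genes with no TTTGAA in the 300 bases were Birc5, Bub1, Ccnb1, Cenpe, Cenph, Cks2, Lrr1, Mtfr2, Ncaph, Nuf2 and Nusap1. Aurkb, Ccna2, Incenp, Kif20a, Ska1, Smc4, Spc24 and Tpx2 were not matched. Of the genes called in all 6 groups without offsets, Ccnb2 and Cks1b held TTTGAA, Cks2, Cenph and Nuf2 did not, and Spc24 was not matched.

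Summed over the 48 genes, the level was lowest in Ctrl. The sum ran from 1109.6 to 2259.8 (median 1348) normalised CPM in Ctrl, and only replicates 5 and 6 of batch 1, at 2092 and 2260, exceeded 1501. At dose 0.3 it ran from 1215 to 3306 (median 1899) in Paternal_0.3Cyp, from 1746 to 2054 (median 1919.7) in Maternal_0.3Cyp and from 1646 to 2477 (median 1817) in Both_0.3Cyp. At dose 10 it ran from 1315 to 2226 (median 1872) in Paternal_10Cyp, from 1687 to 2273 (median 2008) in Maternal_10Cyp and from 1262 to 2782 (median 1673) in Both_10Cyp. Every exposed group overlapped Ctrl, and Maternal_0.3Cyp was the narrowest. Both_10Cyp was spread widest apart from Paternal_0.3Cyp: replicates 3, 4, 5 and 6 lay between 1262 and 1421, within the Ctrl range, while replicates 7 and 8 reached 2782 and 2648. In whole tissue, a change in the number of dividing cells and a change in RNA per dividing cell cannot be told apart.

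**Figure D1:**
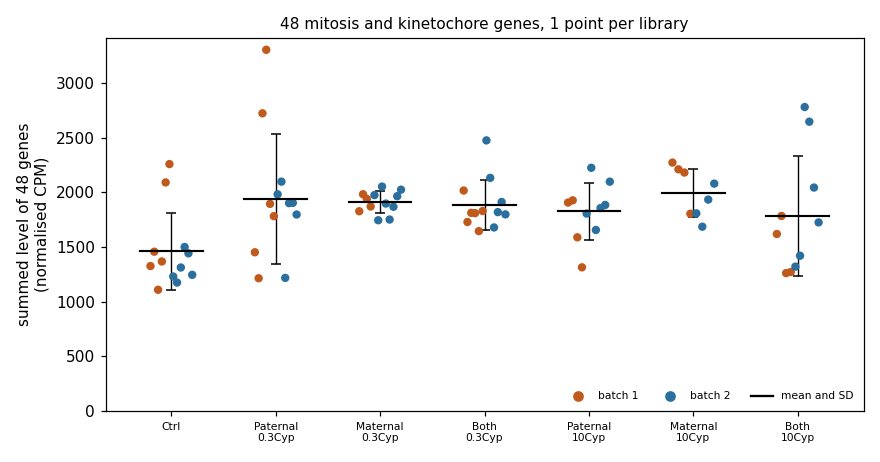
Summed normalised CPM of the 48 genes (y axis, from 0) in each library, by group (x axis). Points are libraries, coloured by batch, and lines and bars are the mean and SD. Most Ctrl libraries lie at or below 1501, 2 Ctrl libraries of batch 1 lie at 2092 and 2260, and Both_10Cyp is spread from 1262 to 2782.

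The first question was whether exposure of the father, the mother or both was followed by a different level of these genes in the embryo. Most of the 48 rose in 4 of the 6 exposed groups, and none fell. By edgeR's quasi-likelihood test, with a Benjamini-Hochberg adjusted p under 0.05 over all tested genes, 43 rose in Paternal_0.3Cyp, where 15.4% of all tested genes rose. In Maternal_0.3Cyp 40 rose (10.9% of all tested genes) and in Both_0.3Cyp 39 rose (10.5%). In Maternal_10Cyp 41 rose (20.4%), in Paternal_10Cyp 23 rose (10.7%) and in Both_10Cyp 6 rose (2.34%). The joint test of the 6 exposed groups called 28 of the 48, and 21.7% of all tested genes. At an unadjusted p under 0.05 by edgeR, Both_10Cyp had 37 of the 48 and 3949 of all 14339 tested genes. Paternal_10Cyp had 36 of the 48 and 5305 of all tested genes. All 48 fold changes were positive in each group. The median log2 fold changes were 0.43, 0.42 and 0.41 in Paternal_0.3Cyp, Maternal_0.3Cyp and Both_0.3Cyp and 0.34, 0.51 and 0.33 in Paternal_10Cyp, Maternal_10Cyp and Both_10Cyp. Over all tested genes the medians were between -0.0131 and 0.0112. All 6 comparisons use the same 12 Ctrl libraries, so that they are not independent of each other. Of the 48, Ccnb2, Cks1b, Cks2, Cenph, Nuf2 and Spc24 passed the test in all 6 groups, 17 passed in 5, 13 in 4, 5 in 3 and Cenpe, Cenpf, Kif11 and Anln in 1. Top2a, Mki67 and Kif4 passed in none.

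The counts depended on the terms of the fit and on the batch. In the same order of groups as the medians, 2 surrogate variables gave 26, 1, 17, 18, 34 and 0 calls, a globin ratio as covariate gave 0, 4, 0, 18, 24 and 1, and batch 1 by itself gave 0, 0, 0, 0, 1 and 0. Batch 2 by itself gave 28, 44, 43, 43, 37 and 45. They rested on single libraries in 3 of these comparisons and in the joint test. Without Paternal_0.3Cyp replicate 4, 25 genes were called in Paternal_0.3Cyp. In Paternal_10Cyp the count was 37 if Ctrl replicate 5 or 6 was left out and 35 if Paternal_10Cyp replicate 4 was. It was 14 with Ctrl replicate 3 left out and 10 with Ctrl replicate 7 left out, and dropping Paternal_10Cyp replicate 2, 5 or 6 gave 11, 14 or 10. In Both_10Cyp dropping Ctrl replicate 5 or 6 gave 20 or 30 calls, and dropping Both_10Cyp replicate 3, 4 or 6 gave 22, 21 or 11. It was 0 without Ctrl replicate 7 or 8 or Both_10Cyp replicate 7 or 8, 1 without Ctrl replicate 3 or 12, 2 without Ctrl replicate 9 and 3 without Ctrl replicate 10. The joint test called 13 without Ctrl replicate 3 or 7 and 14 without Ctrl replicate 8 or 12. It called 41 with the 4 high-globin libraries dropped and 15 with the 5 high-diencephalon ones dropped.

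**Figure D2:**
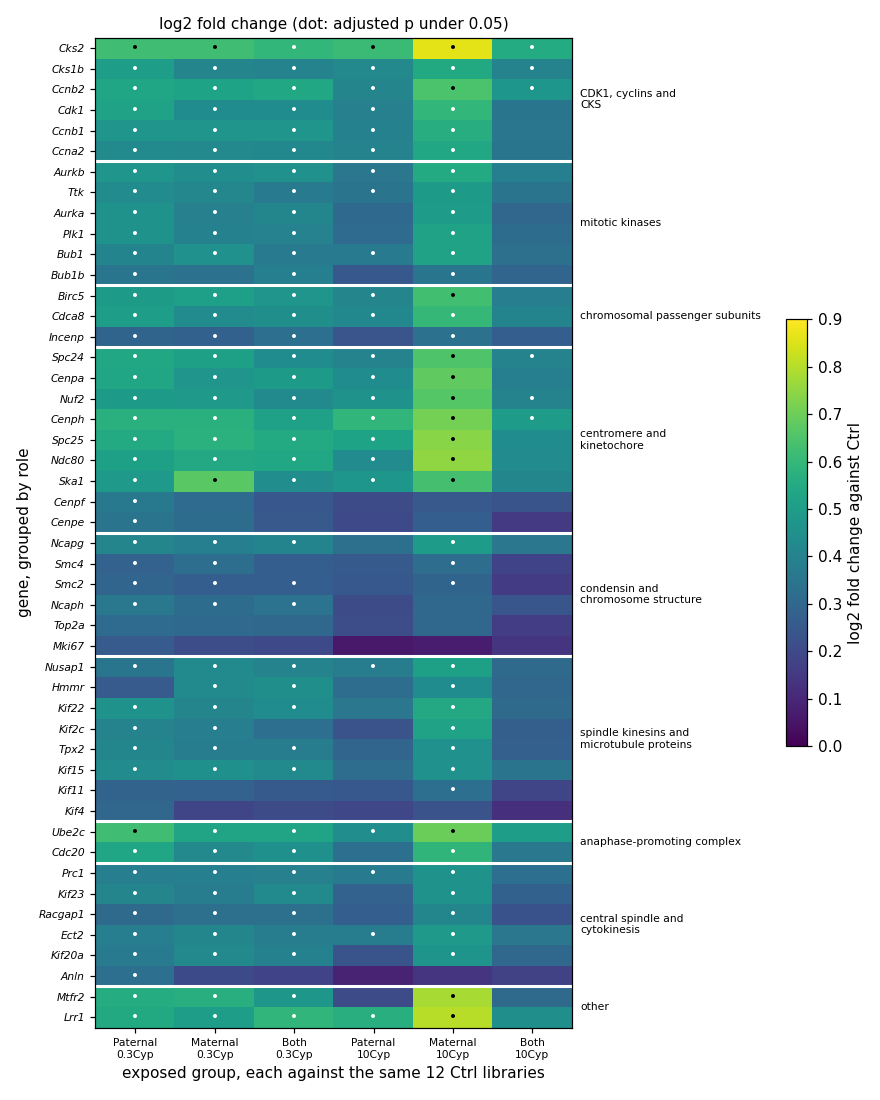
Log2 fold change against Ctrl (colour, from 0 to 0.9) of each of the 48 genes (rows, by role) in the 6 exposed groups (columns). A dot marks an adjusted p under 0.05. Every value is above 0, the column of Maternal_10Cyp has the highest median, 0.51, and the column of Both_10Cyp carries 6 dots.

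CDK1, its cyclins and the CKS proteins, small subunits that bind the kinase, were the role in which calls were most complete. All 6 genes (Cdk1, Ccnb1, Ccnb2, Ccna2, Cks1b and Cks2) rose in every group but Both_10Cyp, where 3 did. Their median log2 fold changes were 0.51, 0.45 and 0.45 at dose 0.3 and 0.41, 0.58 and 0.38 at dose 10, in the order Paternal, Maternal, Both. Cks2 (ENSMUSG00000062248, chromosome 13, 51645232 to 51650660, plus strand) had the largest fold change of the 48 in Maternal_10Cyp in the fit without offsets for length and GC content. With those offsets, described below, Cks2 did not have the largest. It then moved by 0.57 ± 0.12 there (log2 fold change, SE), and Ndc80 and Cenpa, among others, moved more, by 0.76 ± 0.16 and 0.73 ± 0.14. Cks2 in Ctrl had lowest, median and highest values of 7.75, 13.0 and 22.7 normalised CPM. Cks2 at dose 0.3 stood at 11.5, 18.2 and 31.0 in Paternal_0.3Cyp, 15.9, 18.9 and 24.6 in Maternal_0.3Cyp and 16.2, 19.1 and 24.1 in Both_0.3Cyp. Cks2 at dose 10 stood at 15.7, 18.4 and 25.5 in Paternal_10Cyp, 20.6, 23.8 and 25.6 in Maternal_10Cyp and 12.9, 16.8 and 31.8 in Both_10Cyp. One Ctrl library, replicate 6, lay at 22.7 and the next at 16.1, so that all 8 Maternal_10Cyp libraries were above 11 of the 12 Ctrl libraries and replicate 6 alone made the groups overlap. Cks2 had log2 fold changes of 0.62 ± 0.13, 0.63 ± 0.13 and 0.59 ± 0.13 at dose 0.3 and 0.61 ± 0.14, 0.86 ± 0.14 and 0.55 ± 0.14 at dose 10 (SE, in the order Paternal, Maternal, Both). By edgeR the adjusted p were 0.0025, 0.0033, 0.00565, 0.0037, 6.81e-05 and 0.0229.

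Ccnb2, a B-type cyclin (ENSMUSG00000032218, chromosome 9, 70407692 to 70421547, minus strand), was called in every group as well. Ccnb2 values (lowest, median and highest) in Ctrl were 12.1, 16.8 and 29.9 normalised CPM. Ccnb2 at dose 0.3 had 15.8, 25.2 and 43.5 in Paternal_0.3Cyp, 21.0, 27.1 and 30.6 in Maternal_0.3Cyp and 22.9, 26.5 and 34.0 in Both_0.3Cyp. Ccnb2 at dose 10 had 18.5, 24.5 and 29.9 in Paternal_10Cyp, 24.5, 27.9 and 36.0 in Maternal_10Cyp and 17.2, 24.1 and 40.5 in Both_10Cyp. All 12 libraries of Maternal_0.3Cyp and of Both_0.3Cyp and all 8 of Maternal_10Cyp were above the Ctrl mean, and all groups overlapped Ctrl. Ccnb2 had log2 fold changes of 0.53 ± 0.13, 0.52 ± 0.13 and 0.54 ± 0.13 at dose 0.3 and 0.41 ± 0.13, 0.64 ± 0.14 and 0.47 ± 0.13 at dose 10 (SE, in the order Paternal, Maternal, Both). Cks1b, the other CKS gene, was above the Ctrl mean in all 12 libraries of Maternal_0.3Cyp and Both_0.3Cyp, all 10 of Paternal_10Cyp and all 8 of Maternal_10Cyp. Cks1b in Ctrl had lowest, median and highest values of 15.8, 20.3 and 29.6 normalised CPM. Cks1b at dose 0.3 stood at 19.7, 25.8 and 53.6 in Paternal_0.3Cyp, 22.7, 26.8 and 30.9 in Maternal_0.3Cyp and 23.4, 27.4 and 33.0 in Both_0.3Cyp. Cks1b at dose 10 stood at 21.6, 27.3 and 32.8 in Paternal_10Cyp, 26.3, 29.7 and 36.3 in Maternal_10Cyp and 20.4, 25.1 and 39.3 in Both_10Cyp. The widest group was Paternal_0.3Cyp. Cks1b had log2 fold changes of 0.50 ± 0.11, 0.41 ± 0.11 and 0.40 ± 0.11 at dose 0.3 and 0.42 ± 0.11, 0.55 ± 0.12 and 0.40 ± 0.11 at dose 10 (SE, in the order Paternal, Maternal, Both).

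**Figure D3:**
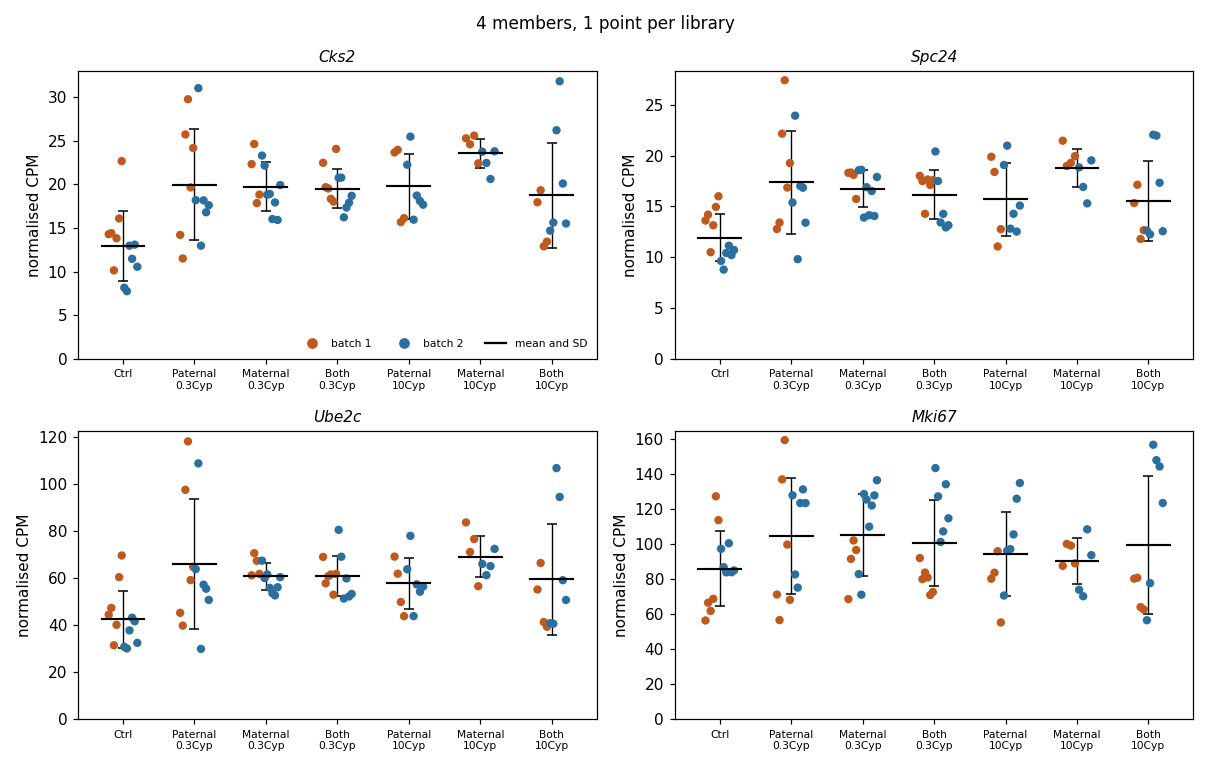
Normalised CPM (y axes, from 0) of Cks2, Spc24, Ube2c and Mki67 in each library, by group (x axes); points are libraries coloured by batch, lines and bars the mean and SD. Cks2 in Maternal_10Cyp runs from 20.6 to 25.6 against a Ctrl median of 13.0, and Mki67 in Maternal_10Cyp runs from 70.2 to 108, inside the Ctrl range of 56.4 to 127.

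The mitotic kinases were Aurora A (Aurka), which works at spindle poles, Aurora B (Aurkb), which corrects faulty attachments, Plk1, the checkpoint kinases Ttk and Bub1, and the checkpoint protein BubR1 (Bub1b). All 6 rose in Paternal_0.3Cyp, Both_0.3Cyp and Maternal_10Cyp, 5 in Maternal_0.3Cyp, 3 in Paternal_10Cyp and 0 in Both_10Cyp, where all 6 had an unadjusted p under 0.05 by edgeR. Aurkb (ENSMUSG00000020897, chromosome 11, 69045647 to 69051664, plus strand) had the lowest joint p among them. Aurkb in Ctrl had lowest, median and highest values of 17.4, 21.2 and 35.3 normalised CPM. Aurkb at dose 0.3 stood at 17.6, 30.0 and 58.2 in Paternal_0.3Cyp, 24.7, 30.1 and 35.8 in Maternal_0.3Cyp and 23.5, 30.1 and 44.7 in Both_0.3Cyp. Aurkb at dose 10 stood at 19.0, 28.7 and 39.5 in Paternal_10Cyp, 28.4, 32.6 and 39.1 in Maternal_10Cyp and 20.8, 27.0 and 45.7 in Both_10Cyp. Aurkb lay above every Ctrl library in 2, 1 and 1 libraries at dose 0.3 (Paternal, Maternal, Both). At dose 10 it did so in 1, 3 and 2 libraries, in the same order. Aurkb had log2 fold changes of 0.47 ± 0.13, 0.44 ± 0.13 and 0.46 ± 0.13 at dose 0.3 and 0.36 ± 0.13, 0.55 ± 0.14 and 0.39 ± 0.13 at dose 10 (SE, in the order Paternal, Maternal, Both). The adjusted p were 0.00711, 0.0128, 0.0115, 0.0473, 0.00178 and 0.0673. Bub1b, with log2 fold changes from 0.25 to 0.39, missed the threshold in Maternal_0.3Cyp (adjusted p = 0.0529 by edgeR) and in both groups with an exposed father at dose 10.

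Aurora B acts within the chromosomal passenger complex with survivin (Birc5), borealin (Cdca8) and its scaffold Incenp. All 3 of these rose in Paternal_0.3Cyp, Maternal_0.3Cyp, Both_0.3Cyp and Maternal_10Cyp, 2 in Paternal_10Cyp and 0 in Both_10Cyp (3 at an unadjusted p under 0.05). Birc5 in Ctrl had lowest, median and highest values of 8.13, 12.4 and 21.3 normalised CPM. Birc5 at dose 0.3 stood at 10.7, 16.9 and 32.0 in Paternal_0.3Cyp, 14.9, 18.6 and 22.7 in Maternal_0.3Cyp and 16.1, 17.7 and 21.1 in Both_0.3Cyp. Birc5 at dose 10 stood at 13.2, 16.6 and 24.4 in Paternal_10Cyp, 16.7, 20.2 and 24.7 in Maternal_10Cyp and 10.8, 15.9 and 25.8 in Both_10Cyp. In Both_0.3Cyp all 12 Birc5 values were above the Ctrl mean, though none was above the highest Ctrl library. Birc5 had log2 fold changes of 0.49 ± 0.13, 0.51 ± 0.13 and 0.47 ± 0.13 at dose 0.3 and 0.41 ± 0.14, 0.63 ± 0.15 and 0.39 ± 0.14 at dose 10 (SE, in the order Paternal, Maternal, Both). Incenp moved least of the 3, by 0.34 ± 0.11 in Maternal_10Cyp and 0.24 ± 0.11 in Paternal_10Cyp (log2 fold change, SE; adjusted p = 0.0141 and 0.0989 by edgeR).

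Of the 9 centromere and kinetochore genes, all rose in Paternal_0.3Cyp, 7 in each of Maternal_0.3Cyp, Both_0.3Cyp, Paternal_10Cyp and Maternal_10Cyp, and 3 in Both_10Cyp. Cenpa encodes the centromeric histone H3 variant and Cenph an inner kinetochore subunit. Ndc80, Nuf2, Spc24 and Spc25 form the NDC80 complex, which holds the microtubule, and Ska1 belongs to a complex that keeps NDC80 attached as microtubules shorten. These 7 genes were the ones that rose in all 5 of those groups, and in Both_10Cyp Spc24, Cenph and Nuf2 rose. Cenpe, a kinetochore motor, and Cenpf, a large kinetochore and matrix protein, passed the test in Paternal_0.3Cyp alone in the fit without offsets, by 0.35 ± 0.14 and 0.36 ± 0.13 (log2 fold change, SE; adjusted p = 0.0477 and 0.0308 by edgeR). Their values in Maternal_10Cyp were 0.27 ± 0.15 and 0.25 ± 0.14 (adjusted p = 0.146 and 0.156). With length and GC offsets Cenpe passed also in Maternal_0.3Cyp and Maternal_10Cyp (adjusted p = 0.0407 and 0.0172), and Cenpf in Maternal_0.3Cyp, Both_0.3Cyp and Maternal_10Cyp (adjusted p = 0.021, 0.0311 and 0.00539).

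Spc24 (ENSMUSG00000074476, chromosome 9, 21755442 to 21760303, minus strand) had the lowest joint p of this role. Spc24 in Ctrl had lowest, median and highest values of 8.78, 10.9 and 16.0 normalised CPM. Spc24 at dose 0.3 stood at 9.81, 16.9 and 27.4 in Paternal_0.3Cyp, 13.9, 17.4 and 18.6 in Maternal_0.3Cyp and 12.9, 17.3 and 20.4 in Both_0.3Cyp. Spc24 at dose 10 stood at 11.1, 14.7 and 21.0 in Paternal_10Cyp, 15.3, 19.1 and 21.5 in Maternal_10Cyp and 11.8, 14.0 and 22.1 in Both_10Cyp. The highest Ctrl library lay at 16.0, and 8 of 12 Maternal_0.3Cyp and 7 of 8 Maternal_10Cyp libraries were above it. Spc24 had log2 fold changes of 0.54 ± 0.12, 0.51 ± 0.12 and 0.44 ± 0.12 at dose 0.3 and 0.40 ± 0.12, 0.65 ± 0.13 and 0.40 ± 0.12 at dose 10 (SE, in the order Paternal, Maternal, Both). The adjusted p by edgeR were 0.0025, 0.00456, 0.00905, 0.0166, 0.000152 and 0.043. Spc25, Ndc80 and Nuf2, the rest of the complex, moved by 0.74 ± 0.15, 0.75 ± 0.15 and 0.66 ± 0.13 in Maternal_10Cyp. With offsets for transcript length and GC content in the fit, Spc24, Spc25, Ndc80 and Nuf2 moved by 0.55 ± 0.12, 0.61 ± 0.14, 0.76 ± 0.16 and 0.67 ± 0.13 there. Nuf2 values (lowest, median and highest) in Ctrl were 13.1, 17.7 and 28.8 normalised CPM. Nuf2 at dose 0.3 had 14.1, 24.2 and 42.5 in Paternal_0.3Cyp, 21.8, 25.0 and 29.2 in Maternal_0.3Cyp and 19.9, 23.6 and 29.2 in Both_0.3Cyp. Nuf2 at dose 10 had 19.6, 24.5 and 31.4 in Paternal_10Cyp, 24.5, 28.2 and 35.2 in Maternal_10Cyp and 17.4, 21.1 and 38.1 in Both_10Cyp. Nuf2 was above the Ctrl mean in every library of Maternal_0.3Cyp, Both_0.3Cyp, Paternal_10Cyp and Maternal_10Cyp. Nuf2 had log2 fold changes of 0.49 ± 0.12, 0.49 ± 0.12 and 0.43 ± 0.12 at dose 0.3 and 0.46 ± 0.12, 0.66 ± 0.13 and 0.40 ± 0.12 at dose 10 (SE, in the order Paternal, Maternal, Both).

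Cenph (ENSMUSG00000045273, chromosome 13, 100759674 to 100775899, minus strand) encodes a subunit of the inner kinetochore. Cenph values (lowest, median and highest) in Ctrl were 3.01, 4.14 and 6.98 normalised CPM. Cenph at dose 0.3 had 4.46, 5.44 and 11.7 in Paternal_0.3Cyp, 5.36, 6.35 and 7.54 in Maternal_0.3Cyp and 4.93, 6.57 and 8.42 in Both_0.3Cyp. Cenph at dose 10 had 5.46, 6.26 and 9.06 in Paternal_10Cyp, 6.07, 7.04 and 8.84 in Maternal_10Cyp and 4.47, 5.52 and 9.29 in Both_10Cyp. Every library of all exposed groups was above the Ctrl mean of 4.41, and 4 of 12 Ctrl libraries were above it as well. Cenph had log2 fold changes of 0.57 ± 0.13, 0.57 ± 0.13 and 0.52 ± 0.13 at dose 0.3 and 0.59 ± 0.14, 0.71 ± 0.15 and 0.50 ± 0.14 at dose 10 (SE, in the order Paternal, Maternal, Both). Ska1 reached 0.67 ± 0.16 in Maternal_0.3Cyp (adjusted p = 0.00462 by edgeR), the largest change of the 48 in that group, at a Ctrl mean of 3.05 normalised CPM.

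Condensin and chromosome structure was the role with the smallest share of calls. Smc2, Smc4, Ncapg and Ncaph encode condensin subunits, which compact chromosomes, Top2a the topoisomerase that untangles them, and Mki67 the Ki-67 protein that coats them and serves as the usual marker of cycling cells. Of the 6, 4 rose in Paternal_0.3Cyp and in Maternal_0.3Cyp, 3 in Both_0.3Cyp and in Maternal_10Cyp, and 0 in Paternal_10Cyp and Both_10Cyp (3 and 1 at an unadjusted p under 0.05 by edgeR). Ncapg in Ctrl had lowest, median and highest values of 9.31, 14.1 and 22.6 normalised CPM. Ncapg at dose 0.3 stood at 10.1, 17.9 and 35.3 in Paternal_0.3Cyp, 15.2, 18.6 and 22.9 in Maternal_0.3Cyp and 14.4, 19.3 and 24.9 in Both_0.3Cyp. Ncapg at dose 10 stood at 14.9, 18.7 and 24.2 in Paternal_10Cyp, 16.8, 20.6 and 22.9 in Maternal_10Cyp and 12.1, 16.5 and 29.7 in Both_10Cyp. Ncapg was above the Ctrl mean in every library of Maternal_0.3Cyp, Both_0.3Cyp, Paternal_10Cyp and Maternal_10Cyp. Ncapg had log2 fold changes of 0.41 ± 0.14, 0.39 ± 0.14 and 0.40 ± 0.13 at dose 0.3 and 0.33 ± 0.14, 0.50 ± 0.15 and 0.36 ± 0.14 at dose 10 (SE, in the order Paternal, Maternal, Both).

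Top2a (ENSMUSG00000020914, chromosome 11, 98992943 to 99024189, minus strand) and Mki67 (ENSMUSG00000031004, chromosome 7, 135689784 to 135716361, minus strand) passed the test in no group without a correction for length and GC content. With it Top2a passed in 2 groups and Mki67 in 1, as given below. Top2a in Ctrl had lowest, median and highest values of 105, 128 and 217 normalised CPM. Top2a at dose 0.3 stood at 105, 174 and 312 in Paternal_0.3Cyp, 145, 179.5 and 206 in Maternal_0.3Cyp and 130.1, 169 and 251 in Both_0.3Cyp. Top2a at dose 10 stood at 111, 169 and 217 in Paternal_10Cyp, 136, 182 and 211 in Maternal_10Cyp and 100.4, 145 and 250.2 in Both_10Cyp. Top2a was above the Ctrl mean in all 12 Maternal_0.3Cyp libraries but in 5 of 10 Both_10Cyp libraries. Top2a had log2 fold changes of 0.32 ± 0.13, 0.31 ± 0.13 and 0.30 ± 0.13 at dose 0.3 and 0.21 ± 0.14, 0.30 ± 0.15 and 0.17 ± 0.14 at dose 10 (SE, in the order Paternal, Maternal, Both), and the adjusted p ran from 0.0631 to 0.436 by edgeR. Mki67 in Ctrl had lowest, median and highest values of 56.4, 84.5 and 127 normalised CPM. Mki67 at dose 0.3 stood at 56.6, 112 and 159.5 in Paternal_0.3Cyp, 68.6, 106 and 137 in Maternal_0.3Cyp and 71.0, 96.7 and 144 in Both_0.3Cyp. Mki67 at dose 10 stood at 55.2, 96.1 and 135 in Paternal_10Cyp, 70.2, 91.4 and 108 in Maternal_10Cyp and 56.5, 80.5 and 157 in Both_10Cyp. Mki67 was above the Ctrl mean in 7 of 12, 9 of 12 and 7 of 12 libraries at dose 0.3 and in 6 of 10, 6 of 8 and 4 of 10 at dose 10. Mki67 had log2 fold changes of 0.26 ± 0.14, 0.21 ± 0.14 and 0.20 ± 0.14 at dose 0.3 and 0.06 ± 0.15, 0.07 ± 0.16 and 0.14 ± 0.15 at dose 10 (SE, in the order Paternal, Maternal, Both), and the adjusted p ran from 0.174 to 0.792. In Maternal_10Cyp, the group in which Cks2 rose by 0.86, the Mki67 change was 0.07 ± 0.16.

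The spindle motors and microtubule proteins comprise the kinesins Kif11, which slides spindle poles apart, Kif15, Kif22, Kif2c and Kif4, the nucleation factor Tpx2, the microtubule binder Nusap1 and Hmmr. Of the 8, 5, 6 and 5 rose at dose 0.3 and 1, 7 and 0 at dose 10, in the order Paternal, Maternal, Both; in Both_10Cyp 5 had an unadjusted p under 0.05 by edgeR. Nusap1 in Ctrl had lowest, median and highest values of 22.4, 29.6 and 50.1 normalised CPM. Nusap1 at dose 0.3 stood at 24.5, 39.6 and 70.3 in Paternal_0.3Cyp, 37.7, 43.1 and 47.1 in Maternal_0.3Cyp and 34.5, 40.7 and 54.7 in Both_0.3Cyp. Nusap1 at dose 10 stood at 31.7, 42.3 and 51.4 in Paternal_10Cyp, 38.9, 43.8 and 52.5 in Maternal_10Cyp and 28.8, 34.4 and 61.8 in Both_10Cyp. All 12 values of Maternal_0.3Cyp were above the Ctrl mean of Nusap1, and none was above its highest Ctrl library. Nusap1 had log2 fold changes of 0.35 ± 0.12, 0.43 ± 0.12 and 0.40 ± 0.12 at dose 0.3 and 0.38 ± 0.13, 0.51 ± 0.13 and 0.31 ± 0.12 at dose 10 (SE, in the order Paternal, Maternal, Both). Kif4, a chromosome-arm motor on the X chromosome, passed in no group. Kif4 in Ctrl had lowest, median and highest values of 14.5, 18.9 and 29.5 normalised CPM. Kif4 at dose 0.3 stood at 16.0, 23.9 and 44.2 in Paternal_0.3Cyp, 17.6, 24.1 and 27.2 in Maternal_0.3Cyp and 17.4, 23.4 and 31.3 in Both_0.3Cyp. Kif4 at dose 10 stood at 13.6, 23.8 and 30.8 in Paternal_10Cyp, 18.0, 23.5 and 29.2 in Maternal_10Cyp and 13.4, 19.3 and 38.3 in Both_10Cyp. Kif4 was above the Ctrl mean in 9, 10 and 9 of 12 libraries at dose 0.3 and in 8 of 10, 6 of 8 and 4 of 10 at dose 10. Kif4 had log2 fold changes of 0.30 ± 0.14, 0.19 ± 0.14 and 0.21 ± 0.14 at dose 0.3 and 0.19 ± 0.14, 0.23 ± 0.15 and 0.12 ± 0.14 at dose 10 (SE, in the order Paternal, Maternal, Both). Kif11 passed in Maternal_10Cyp, by 0.33 ± 0.13 (adjusted p = 0.0401 by edgeR).

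Cdc20, which activates the anaphase-promoting complex, and Ube2c, the enzyme that supplies it with ubiquitin, both rose in every group except Paternal_10Cyp, where Ube2c alone rose, and Both_10Cyp, where neither passed (both at an unadjusted p under 0.05 by edgeR). Ube2c in Ctrl had lowest, median and highest values of 30.0, 40.8 and 69.5 normalised CPM. Ube2c at dose 0.3 stood at 29.8, 58.1 and 118 in Paternal_0.3Cyp, 52.6, 60.7 and 70.5 in Maternal_0.3Cyp and 51.2, 60.3 and 80.4 in Both_0.3Cyp. Ube2c at dose 10 stood at 43.7, 56.8 and 77.9 in Paternal_10Cyp, 56.5, 68.5 and 83.6 in Maternal_10Cyp and 39.2, 52.9 and 107 in Both_10Cyp. The highest Ube2c values belonged to Paternal_0.3Cyp replicates 4 and 8, and in Both_10Cyp 6 of 10 libraries were above the Ctrl mean. Ube2c had log2 fold changes of 0.62 ± 0.15, 0.53 ± 0.15 and 0.52 ± 0.15 at dose 0.3 and 0.44 ± 0.16, 0.70 ± 0.16 and 0.50 ± 0.16 at dose 10 (SE, in the order Paternal, Maternal, Both). The adjusted p were 0.00361, 0.0114, 0.0124, 0.0375, 0.000802 and 0.0508. Per kilobase of exon, Cdc20 had the highest Ctrl mean of the 48 genes at 22.1 normalised CPM and Mtfr2 the lowest at 0.877.

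Genes of the central spindle and cytokinesis act last. Prc1 bundles midzone microtubules, Kif23 and Racgap1 form centralspindlin, Kif20a brings the passenger complex there, Ect2 activates RhoA and Anln links the contractile ring. All 6 rose in Paternal_0.3Cyp, 5 in each of Maternal_0.3Cyp, Both_0.3Cyp and Maternal_10Cyp, 2 in Paternal_10Cyp and 0 in Both_10Cyp (5 at an unadjusted p under 0.05 by edgeR). Prc1 in Ctrl had lowest, median and highest values of 37.6, 46.3 and 76.2 normalised CPM. Prc1 at dose 0.3 stood at 40.2, 61.5 and 109.5 in Paternal_0.3Cyp, 57.3, 62.2 and 73.1 in Maternal_0.3Cyp and 51.7, 62.1 and 84.1 in Both_0.3Cyp. Prc1 at dose 10 stood at 48.5, 64.7 and 77.6 in Paternal_10Cyp, 58.2, 66.2 and 78.4 in Maternal_10Cyp and 44.4, 56.2 and 94.0 in Both_10Cyp. Prc1 stayed within 57.3 to 73.1 in Maternal_0.3Cyp, all above the Ctrl mean and none above the highest Ctrl library. Prc1 had log2 fold changes of 0.38 ± 0.11, 0.39 ± 0.11 and 0.39 ± 0.11 at dose 0.3 and 0.37 ± 0.12, 0.46 ± 0.12 and 0.33 ± 0.12 at dose 10 (SE, in the order Paternal, Maternal, Both). Anln passed in Paternal_0.3Cyp, by 0.33 ± 0.12 (adjusted p = 0.0298 by edgeR), and was between 0.09 and 0.20 in the other 5 groups.

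Mtfr2 and Lrr1 are not parts of the mitotic machinery in the strict sense. Mtfr2 is linked to mitochondrial fission, and Lrr1 is a substrate receptor of a cullin ubiquitin ligase that removes the replicative helicase from chromatin. Both rose in Paternal_0.3Cyp, Maternal_0.3Cyp, Both_0.3Cyp and Maternal_10Cyp, and Lrr1 in Paternal_10Cyp. Mtfr2 in Ctrl had lowest, median and highest values of 1.34, 1.89 and 2.90 normalised CPM. Mtfr2 at dose 0.3 stood at 1.73, 2.57 and 5.34 in Paternal_0.3Cyp, 1.93, 2.82 and 3.54 in Maternal_0.3Cyp and 1.50, 2.61 and 3.43 in Both_0.3Cyp. Mtfr2 at dose 10 stood at 1.48, 2.09 and 2.80 in Paternal_10Cyp, 2.77, 3.26 and 3.86 in Maternal_10Cyp and 1.58, 2.18 and 3.72 in Both_10Cyp. In Maternal_10Cyp 6 of 8 Mtfr2 values were above every Ctrl library, and in Paternal_10Cyp none was. Mtfr2 had log2 fold changes of 0.56 ± 0.14, 0.57 ± 0.14 and 0.48 ± 0.14 at dose 0.3 and 0.21 ± 0.15, 0.78 ± 0.15 and 0.31 ± 0.15 at dose 10 (SE, in the order Paternal, Maternal, Both). The adjusted p were 0.00443, 0.00551, 0.0144, 0.309, 0.000152 and 0.153 by edgeR. Lrr1 moved by 0.80 ± 0.17 in Maternal_10Cyp (adjusted p = 0.000302).

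The genes called in 1 or no group had summed exon lengths of 5514 to 15433 bases, and those called in all 6 groups had lengths of 692 to 6341 bases. The summed exon length of the 48 genes ran from 692 to 15433 bases with a median of 4520, and Cks2 was the shortest and Cenpf the longest. Across the 48 genes the rank correlation of log2 fold change with exon length (Spearman's rho, a description over genes that share libraries) was -0.64, -0.58 and -0.60 at dose 0.3 and -0.50, -0.66 and -0.60 at dose 10, in the order Paternal, Maternal, Both. Over 14327 tested genes with a length it was between -0.39 and -0.30, so that shorter genes had higher fold changes in the whole table too. With offsets for length and GC content in the fit, the correlation over the 48 genes was between -0.21 and 0.08, and the median log2 fold changes were 0.40, 0.39, 0.40, 0.31, 0.50 and 0.31. In Maternal_10Cyp Cks2 then moved by 0.57 ± 0.12 and Mki67 by 0.37 ± 0.15 (adjusted p = 0.000542 and 0.0583 by edgeR), against 0.86 ± 0.14 and 0.07 ± 0.16 without offsets. Cenpf moved by 0.55 ± 0.15 (adjusted p = 0.00539) and Top2a by 0.39 ± 0.15 (adjusted p = 0.0398) there, both past the threshold, and Top2a passed in Paternal_0.3Cyp too (0.38 ± 0.14, adjusted p = 0.0433). Mki67 passed in Paternal_0.3Cyp (0.44 ± 0.14, adjusted p = 0.024). Under offsets 43, 33, 33, 5, 44 and 0 of the 48 genes rose. The medians over the 48 genes changed by at most 0.03. Length and GC offsets were fitted together, and their separate parts were not tested. Fold change also fell with expression level across the 48 genes, with rho between -0.56 and -0.34 without offsets.

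**Figure D4:**
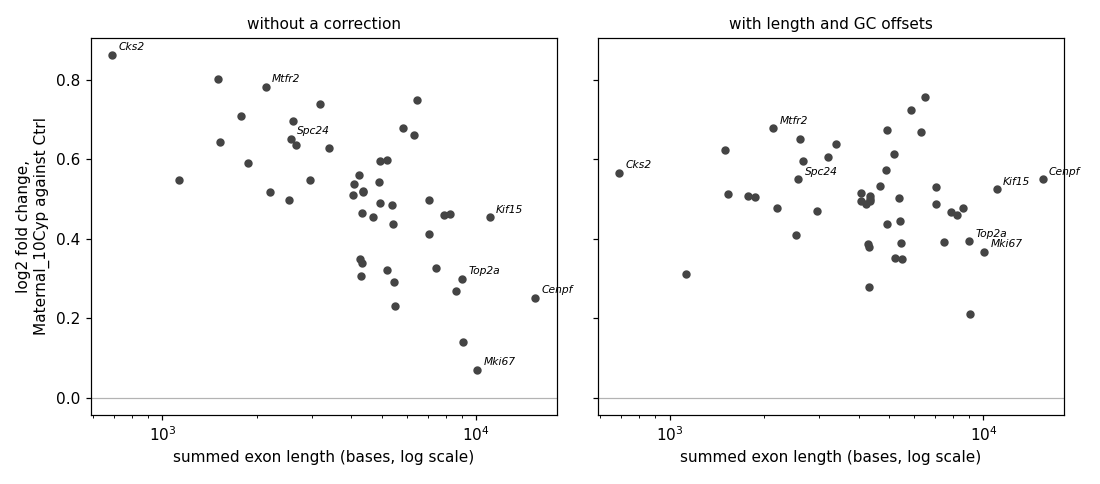
Log2 fold change in Maternal_10Cyp against Ctrl (y axis) and summed exon length (x axis, log scale) of the 48 genes, without a correction (left) and with length and GC offsets (right). Without a correction Cks2 lies at 0.86 and Mki67 at 0.07; with offsets they lie at 0.57 and 0.37.

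The next question was whether dose or the exposed parent made a difference. No member passed the test between dose 10 and dose 0.3 for an exposed father (0.0628% of all genes did), an exposed mother (0.0%) or both (0.00697%), by edgeR, DESeq2 or limma. At an unadjusted p under 0.05 edgeR had 1, 0 and 0 members, and 1250, 1291 and 414 of all 14339 tested genes. The medians over the 48 genes of the dose 10 minus dose 0.3 difference were -0.09, 0.09 and -0.08 on the log2 scale. The 1 member was Mtfr2, at -0.35 ± 0.14 (log2, SE; adjusted p = 0.418) at dose 10 for an exposed father. Between an exposed mother and an exposed father, no member passed at dose 0.3 (0.00697% of all genes) or dose 10 (0.0%) by edgeR, DESeq2 or limma. Unadjusted, 0 and 2 members were under 0.05 by edgeR, the 2 being Mtfr2 and Ndc80. Of all tested genes 582 and 718 were. The log2 differences of mother minus father at dose 10 were positive for all 48, with a median of 0.16, and Mtfr2 differed by 0.58 ± 0.16 (unadjusted p = 0.000489, adjusted p = 0.757).

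At dose 10, exposure of both parents was followed by smaller changes than the sum of those with each parent. Non-additivity is the log2 level with both exposed, minus that with the mother, minus that with the father, plus that of Ctrl. It is below 0 where the change with both is smaller than the sum. It uses the same Ctrl libraries as the comparisons above, and a low Ctrl level also lowers it. It is therefore not independent of those comparisons. At dose 10, 30 of the 48 genes were below 0 by the test, against 13.3% of all tested genes in that direction, and none was above. The median was -0.51. Cks2 had the lowest value, -0.92 ± 0.20 (SE, n = 10, 8, 10 and 12; adjusted p = 0.00189 by edgeR), Lrr1 had -0.92 ± 0.24 and Spc25 -0.83 ± 0.21, and Mki67 stood at 0.01 ± 0.23 (adjusted p = 0.983). At dose 0.3 no member passed by edgeR, with 0.0% of all tested genes lower, although the median was -0.45 and all 48 values were below 0. Unadjusted, 40 of the 48 and 3659 of all 14339 tested genes had a p under 0.05 by edgeR. DESeq2 called 6 and limma 27 of the 48 at dose 0.3. Leaving out Ctrl replicate 6 or Paternal_0.3Cyp replicate 1, 2 or 9 gave 16, 6, 13 and 14 calls. At dose 10 the count was 18 without Maternal_10Cyp replicate 1, 45 with the 4 high-globin libraries dropped and 17 with the 5 high-diencephalon ones dropped. It was 0 in batch 1 by itself, 2 in batch 2 by itself, 14 with the globin ratio as a covariate and 16 with length and GC offsets.

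Counts of genes called differed between the batches. The values within a batch given here come from 1 fit to all 76 libraries, with a mean for each group in each batch. The fits to each batch by itself, given above, are separate and gave somewhat different counts. Within batch 2, 25, 43, 41, 39, 35 and 44 genes rose in Paternal_0.3Cyp, Maternal_0.3Cyp, Both_0.3Cyp, Paternal_10Cyp, Maternal_10Cyp and Both_10Cyp, where 11.6%, 11.5%, 6.52%, 9.99%, 18.0% and 10.9% of all tested genes did. Within batch 1, 0, 0, 0, 0, 1 and 0 did, the 1 being Ndc80, against 0.00697%, 0.0%, 0.0%, 0.0%, 0.0907% and 0.0% of all genes. At an unadjusted p under 0.05 edgeR had 35, 7, 5, 0, 36 and 0 members in batch 1. Of all 14339 tested genes 2822, 1207, 1944, 1843, 3125 and 410 were under 0.05 there. The median log2 fold changes of the 48 genes within batch 1 were 0.37, 0.28, 0.22, 0.04, 0.44 and -0.08. Within batch 2 they were 0.48, 0.57, 0.61, 0.59, 0.59 and 0.65. Both_10Cyp showed the widest gap. In batch 1 its Cks2 changed by 0.06 ± 0.20 and its Mki67 by -0.20 ± 0.22, and in batch 2 by 0.95 ± 0.18 and 0.38 ± 0.20 (SE). Tested directly, the batch by exposure term called 0 of the 48 genes by edgeR, DESeq2 and limma (0.0% of all genes by edgeR). At an unadjusted p under 0.05 by edgeR it had 20 of the 48 and 950 of all tested genes. Ctrl replicates 5 and 6, the 2 high Ctrl libraries, are both in batch 1. The sex by exposure term called 0 members by edgeR (0.0% of all genes). At an unadjusted p under 0.05 it had 0 members and 367 of all tested genes. Male against female called 0 members by edgeR (0.0907% of all genes). Unadjusted, it had 4 members and 586 of all tested genes. DESeq2 and limma called 0 for both.

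Markers of other cell types went in different directions from list to list. In the order Paternal, Maternal, Both, 15.4%, 10.9% and 10.5% of all tested genes rose at dose 0.3. At dose 10 the shares were 10.7%, 20.4% and 2.34%. Of 10 intermediate progenitor markers, 9, 9 and 7 rose at dose 0.3 and 5, 9 and 2 at dose 10, in the order Paternal, Maternal, Both. Their summed level ran from 499 to 952 (median 652) normalised CPM in Ctrl and from 835 to 1030.2 (median 896) in Maternal_10Cyp. It ran from 505 to 1406 (median 835) in Paternal_0.3Cyp, from 721 to 897 (median 851) in Maternal_0.3Cyp and from 769 to 923 (median 833) in Both_0.3Cyp. In Paternal_10Cyp it ran from 602 to 947 (median 795) and in Both_10Cyp from 620.0 to 1231 (median 775). Of 15 radial glia markers 7, 5, 5, 3, 7 and 1 rose and 3, 2, 3, 2, 3 and 2 fell, and their summed level ran from 1844 to 2278 (median 2096) in Ctrl. At dose 0.3 it ran from 1920.0 to 2773 (median 2163) in Paternal_0.3Cyp, 2055 to 2474 (median 2166) in Maternal_0.3Cyp, 1997 to 2283 (median 2194) in Both_0.3Cyp. At dose 10 it ran from 1961 to 2343 (median 2105) in Paternal_10Cyp, 2053 to 2460.5 (median 2102) in Maternal_10Cyp, 1869 to 2506 (median 1983) in Both_10Cyp. Of 6 oligodendrocyte precursor markers 3, 5, 5, 3, 6 and 1 fell and none rose. Their sum ran from 95.1 to 223 (median 158) in Ctrl. At dose 0.3 this sum ran from 50.3 to 205 (median 118) in Paternal_0.3Cyp, 101 to 138 (median 111) in Maternal_0.3Cyp, 93.8 to 131 (median 117) in Both_0.3Cyp. At dose 10 this sum ran from 94.6 to 164 (median 109) in Paternal_10Cyp, 90.0 to 115 (median 101) in Maternal_10Cyp, 73.9 to 167 (median 132) in Both_10Cyp. Of 15 markers of postmitotic cortical neurons 8, 4, 4, 4, 7 and 1 fell, and 2 rose in Maternal_10Cyp. Their sum ran from 5413 to 7091 (median 6367) in Ctrl, from 3713 to 6441 (median 5901) in Paternal_0.3Cyp, 5235 to 6512 (median 5909) in Maternal_0.3Cyp, 5204 to 6571 (median 5797) in Both_0.3Cyp. The neuron sum at dose 10 ran from 5419 to 6663 (median 5847) in Paternal_10Cyp, 5278 to 6221 (median 5609.8) in Maternal_10Cyp, 5651 to 6425 (median 6028) in Both_10Cyp. Of dorsal forebrain markers, Emx2 rose in all 6 groups, Pax6 in every group but Both_10Cyp, and Emx1 in Paternal_0.3Cyp, Paternal_10Cyp and Maternal_10Cyp. Their log2 fold changes in Maternal_10Cyp were 0.38 ± 0.11, 0.46 ± 0.11 and 0.52 ± 0.14 (SE). Of the other lists, 7 of 10 diencephalon markers rose in Paternal_0.3Cyp and 0 elsewhere. Of 6 choroid plexus markers 1 rose in Paternal_0.3Cyp, of 11 microglia and macrophage markers 2 rose in Maternal_0.3Cyp and 1 in Paternal_10Cyp, and of 8 meningeal markers 0 passed. Of 8 endothelial markers 1, 1, 1, 2, 2 and 0 fell, and of 11 ventral forebrain markers 2, 1, 0, 1, 1 and 0 fell and 0, 0, 1, 0, 1 and 0 rose. Every marker of these lists reached 1 normalised CPM in some library, and 5 of the diencephalon, 3 of the erythroid and 2 of the microglia markers had a median under 1. No share of all tested genes that fell is set beside the counts of falling markers. Whether those counts exceed it was not tested. Nor was it tested whether the counts of rising markers exceed the shares of all tested genes that rose. The part of these cell types in the results was not tested.

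The ratio of embryonic (Hbb-y and Hba-x) to adult globin counts, which falls as definitive red cells replace the primitive ones, was highest in the libraries with the highest sums of the 48 genes. On the log2 scale it ran from -16.1 to -10.2 (median -12.8) in Ctrl, and Ctrl replicates 5 and 6, the 2 with high sums, were at -10.7 and -10.2. It ran from -12.9 to -4.84 (median -11.0) in Paternal_0.3Cyp, from -12.1 to -10.2 (median -10.7) in Maternal_0.3Cyp and from -12.5 to -9.62 (median -10.9) in Both_0.3Cyp. At dose 10 it ran from -13.3 to -10.3 (median -11.4) in Paternal_10Cyp, from -11.4 to -9.90 (median -10.3) in Maternal_10Cyp and from -16.7 to -7.14 (median -11.4) in Both_10Cyp. The 4 libraries with the highest ratios, Paternal_0.3Cyp replicates 3 and 4 and Both_10Cyp replicates 7 and 8, were also the 4 with the highest sums, from 2648 to 3306. With the ratio as a covariate, an alternative added after seeing the data, 0, 4, 0, 18, 24 and 1 members rose in Paternal_0.3Cyp, Maternal_0.3Cyp, Both_0.3Cyp, Paternal_10Cyp, Maternal_10Cyp and Both_10Cyp, with medians of 0.13, 0.22, 0.20, 0.22, 0.24 and 0.17. Without the 4 libraries the counts were 18, 45, 42, 36, 43 and 0 and the medians 0.26, 0.42, 0.41, 0.35, 0.52 and 0.10. Dropping the 5 libraries with high diencephalon markers gave 42, 28, 26, 4, 37 and 0. Of 9 erythroid markers 7, 2, 2, 3, 0 and 1 rose. The shares of all tested genes that rose are those given with the other markers. The summed level of the erythroid markers ran from 1365 to 1973 (median 1501) in Ctrl. The erythroid sum ran from 1539 to 3753 (median 1845) in Paternal_0.3Cyp, 1346 to 2116 (median 1897) in Maternal_0.3Cyp, 1477 to 2285 (median 1912) in Both_0.3Cyp. For dose 10 it ran from 1509 to 2514 (median 1874) in Paternal_10Cyp, 1444 to 2219 (median 1802) in Maternal_10Cyp, 1308 to 2476 (median 1808) in Both_10Cyp.

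**Figure D5:**
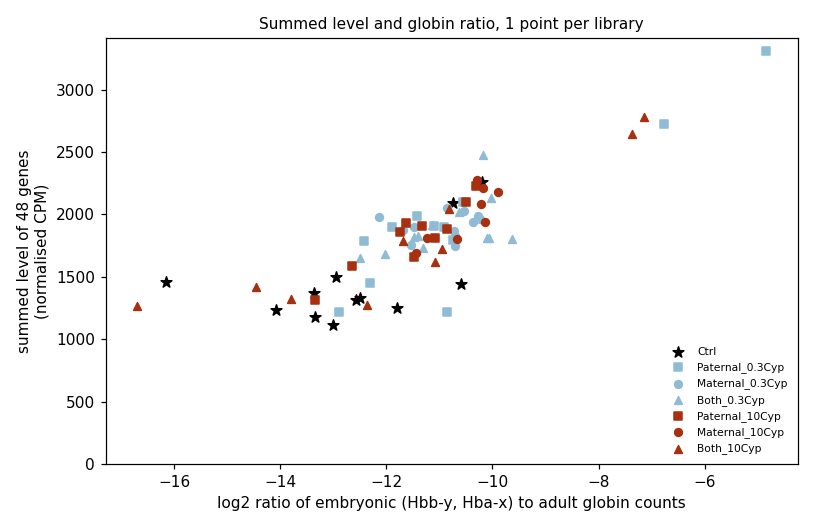
Summed normalised CPM of the 48 genes (y axis, from 0) and log2 ratio of embryonic to adult globin counts (x axis) in each library; symbols give the group. The 4 libraries with the highest ratios have sums from 2648 to 3306, and most Ctrl libraries lie at low ratios and low sums.

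Other genes of the same machinery were taken from 8 lists of pathway genes outside the 48. In the order Paternal, Maternal, Both, 15.4%, 10.9% and 10.5% of all tested genes rose at dose 0.3. At dose 10 the shares were 10.7%, 20.4% and 2.34%. Whether the counts of rising genes in the 8 lists exceed these shares was not tested. Of 26 further kinetochore genes, 18, 16 and 17 rose at dose 0.3 and 11, 20 and 3 at dose 10 in the order Paternal, Maternal, Both, and none fell. Their median log2 fold changes were 0.32, 0.35, 0.31, 0.28, 0.42 and 0.26. Cenpn, Cenpu and Cenpm, inner kinetochore subunits, rose by 0.55 ± 0.13, 0.58 ± 0.12 and 0.59 ± 0.12 in Maternal_10Cyp (SE). Of 11 spindle checkpoint genes 6, 7, 5, 4, 8 and 2 rose. Mad2l1, which holds Cdc20 inactive until chromosomes attach, rose by 0.47 ± 0.10 in Maternal_10Cyp and by 0.35 ± 0.09 in Paternal_0.3Cyp. Knstrn, a kinetochore and spindle adaptor, rose by 0.64 ± 0.13 in Maternal_10Cyp, and Trip13, the ATPase that recycles MAD2, by 0.37 ± 0.09. Of 17 anaphase-promoting complex genes 9, 8, 7, 9, 12 and 2 rose and 1 fell in Maternal_10Cyp. Anapc13 and Anapc15, small subunits, rose in all 6 groups, by 0.66 ± 0.12 and 0.34 ± 0.06 in Maternal_10Cyp.

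Of 39 spindle, centrosome and cytokinesis genes 25, 23, 21, 14, 27 and 1 rose, and 1 fell in Paternal_10Cyp and 2 in Maternal_10Cyp. Haus2, of the augmin complex that branches spindle microtubules, rose by 0.26 ± 0.05 in Maternal_10Cyp, as did Pbk, a mitotic kinase, by 0.68 ± 0.13 and Fam83d, which brings casein kinase to the spindle, by 0.60 ± 0.12. Of 26 tested genes of mitotic entry and exit 16, 16, 15, 9, 20 and 2 rose, and 1 fell in each of the first 5 groups. E2f1, an activator of cell cycle genes, rose by 0.57 ± 0.11 in Maternal_10Cyp and in the 5 other groups by 0.39 to 0.46, and Rbl2, which encodes a pocket protein of the DREAM complex, fell by 0.23 on the log2 scale in Maternal_10Cyp (SE 0.05). Of 17 cohesin and separase genes 4, 5, 5, 3, 5 and 0 rose and 1, 0, 1, 1, 1 and 0 fell, with medians between 0.01 and 0.07. In Maternal_10Cyp Cdca5, the sororin that protects cohesin, rose by 0.66 ± 0.15 and Sgo1, which guards centromeric cohesin, by 0.54 ± 0.14, while Pds5b, a cohesin regulator, changed by -0.24 ± 0.06, a fall. Of the 4 other condensin subunits, Ncaph2 rose in every group but Both_10Cyp and the other 3 passed in none. Of 11 tested cell cycle inhibitors 3, 2, 3, 2, 7 and 0 rose and 1 fell in Maternal_0.3Cyp. Here too, the counts of genes that fell have no share of all tested genes beside them. Btg2, an antiproliferative gene of neurogenic progenitors that is also on the intermediate progenitor list, rose by 0.55 ± 0.12 in Maternal_10Cyp, and Cdkn2c, an inhibitor of the G1 kinases, by 0.47 ± 0.10. Cdkn1c, another inhibitor on that list, changed by 0.09 ± 0.09 in Maternal_10Cyp (adjusted p = 0.403 by edgeR).

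Across all 76 libraries, Mki67 was set beside 4 other genes on log2 normalised CPM. With Top2a, also of the 48, Pearson's r was 0.88 and Spearman's rho 0.88. With the progenitor genes Pax6 and Eomes, r was 0.61 and 0.63 and rho 0.52 and 0.57. For these 3 genes each permutation p was 1e-05, the smallest that 100000 permutations can give, and 1.33e-05 after adjustment over the 4 relations. With Neurod6, a gene of postmitotic neurons, r was 0.04 (adjusted permutation p = 0.757) and rho -0.09 (adjusted permutation p = 0.437). Without the 2 libraries farthest from the Mki67 median, r was 0.87, 0.59, 0.60 and 0.02. Within batch 1 r was 0.93, 0.79, 0.82 and 0.34, and within batch 2 it was 0.88, 0.56, 0.61 and 0.12, for Top2a, Pax6, Eomes and Neurod6. The libraries come from 7 groups, and group was not a term in these correlations. Without length and GC offsets Mki67 passed the test against Ctrl in none of the 6 exposed groups, and with them in Paternal_0.3Cyp. Pax6 rose in every group but Both_10Cyp. Mki67 and Top2a have summed exon lengths of 10061 and 9013 bases, and no correlation with a length correction was computed.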

How the data were processed

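RNA-seq of 76 dorsal forebrain libraries was analysed. The deposited table holds 1 expected count per gene and library, made by the authors with Trim Galore 0.5.0, Salmon 1.10.1 and mm10, per the submitters' processing notes; the values are whole numbers, and how they were made whole and the annotation release are not given in the sources used here. Every column belonged to a labelled sample. Groups, batch and sex came from the labels. Positions are from GENCODE M21 on mm10, and promoter sequences from RefSeq on GRCm38.p6.

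Genes were filtered on low counts (filterByExpr), scaled by TMM and fitted over the 76 libraries together, with terms for group, sex and batch, by the robust quasi-likelihood test of edgeR 4.0.16 in R 4.3.3, 2-sided, with Benjamini-Hochberg adjustment over 14339 genes at 0.05. Pooling the groups gives 1 shared estimate of spread. Changes within a batch came from a further fit to the same libraries, with a mean for each group in each batch and a term for sex. Totals of 17735597 to 41419156 counts limit the precision of the genes with few counts. The code was tested on simulated data.

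The 48 genes and all other lists were chosen with earlier results of these data known. Values in every group are given for the gene of lowest joint p in each role and for the genes called in the most and the fewest exposed groups. From each other pathway list up to 3 genes of lowest joint p could be named. The count over the dorsal forebrain markers includes an item not reported here, so that list is given by named genes.

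Alternatives were DESeq2 1.42.0, limma 3.58.1 (voom with quality weights), DESeq2 size factors, no low count filter, unscaled totals, a prior count of 2 in place of 0.5, no batch term, a replicate block, 2 surrogate variables (sva 3.50.0), only the groups compared, each batch alone, and each library left out. Chosen after seeing the data were a globin covariate (log2 ratio, pseudocount 0.5), leaving out libraries over 3 median absolute deviations above the median in embryonic globin or in diencephalon markers, thinned counts, and length and GC offsets. The offsets used the length and GC content of the longest transcript of each gene. The correlations with length and the plotted lengths used summed exon length.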

Additional observations from a re-analysis of the deposited data

Results flagged for a closer look

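Non-additivity at dose 10, tested as the contrast of both parents minus mother minus father plus Ctrl, called 30 of the 48 genes, all below 0, by edgeR. Of all tested genes 13.3% were called below 0 at dose 10. At dose 0.3 no member passed, although all 48 values were below 0. The median was -0.45 there and -0.51 at dose 10. At an unadjusted p under 0.05 edgeR had 40 members at dose 0.3 and 37 at dose 10. Of all tested genes 3659 and 5813 were. The contrast shares its Ctrl libraries with the comparisons against Ctrl and is not independent of them. Among the genes described by library, the log2 values at dose 10 were -0.92 for Cks2, -0.81 for Cenph, -0.72 for Nuf2, -0.68 for Mtfr2, -0.65 for Spc24, -0.65 for Birc5 and -0.64 for Ube2c. They were -0.58 for Ccnb2, -0.58 for Nusap1, -0.57 for Cks1b, -0.52 for Aurkb and -0.51 for Prc1. In 51 checks of groups of 4 to 10 libraries, no single library lay apart from the rest of its group by Dixon's criterion, which chance meets in about 1 of 20 groups. Ctrl, Paternal_0.3Cyp, Maternal_0.3Cyp and Both_0.3Cyp, with 12 libraries each, were not checked as wholes. The criterion looks for 1 library at a time and may miss 2 high ones together, such as Both_10Cyp replicates 7 and 8. The libraries described above as standing apart were picked in other ways.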

How the results depend on the processing

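Counts of the 48 genes called are given in the order Paternal_0.3Cyp, Maternal_0.3Cyp, Both_0.3Cyp, Paternal_10Cyp, Maternal_10Cyp, Both_10Cyp, and are 43, 40, 39, 23, 41 and 6 as reported. With 2 surrogate variables they were 26, 1, 17, 18, 34 and 0, in batch 1 alone 0, 0, 0, 0, 1 and 0, and in batch 2 alone 28, 44, 43, 43, 37 and 45. With the globin ratio as a covariate they were 0, 4, 0, 18, 24 and 1, with the high embryonic globin libraries dropped 18, 45, 42, 36, 43 and 0, and with the high diencephalon libraries dropped 42, 28, 26, 4, 37 and 0. With length and GC offsets they were 43, 33, 33, 5, 44 and 0. Fitting only the groups compared gave 0 in Paternal_0.3Cyp and 0 in Both_10Cyp, and no batch term gave 0 in Both_10Cyp. DESeq2 and limma each called 12 in Both_10Cyp, and limma 42 in Paternal_10Cyp.

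The joint test, 28 as reported, called 45 by limma, 18 with 2 surrogate variables, 0 in batch 1 alone, 3 with the globin covariate, 15 with the high diencephalon libraries dropped and 11 with offsets. Non-additivity at dose 0.3, 0 as reported, called 6 by DESeq2 and 27 by limma. At dose 10, 30 as reported, it called 0 in batch 1 alone, 2 in batch 2 alone, 14 with the globin covariate, 17 with those libraries dropped and 16 with offsets. The log2 fold change of Ccnb2 in Both_10Cyp was -0.030 in batch 1 alone. The cause of these shifts was not tested. No share of all tested genes under the same fit is set beside these counts or the leave-one-out counts below.

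Leaving out each library in turn gave 25 to 48, 30 to 45, 27 to 45, 10 to 37, 38 to 45 and 0 to 30 calls in the 6 exposed groups, 13 to 40 in the joint test, 0 to 16 for non-additivity at dose 0.3 and 18 to 40 at dose 10. The labels tie replicate numbers to no litter or day, and 58 of 210 pairs of libraries with the same number had correlated deviations over 0.1, while 4 of 76 libraries correlated best with their own number. With the replicate block the counts were 44, 45, 40, 26, 45 and 4, with 26 in the joint test and 28 for non-additivity at dose 10.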
